A study of Mus musculus with 15 samples.

Results

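*Nanog* and 8 other regulators of the naive pluripotency network were followed in mouse embryonic stem cells (ESCs) that lost the transcription factor OCT4, the product of *Pou5f1*. The 9 genes were *Nanog*, *Tfcp2l1*, *Tbx3*, *Prdm14*, *Zfp42*, *Sall4*, *Sall1*, *Zfp281* and *Tcl1*, chosen by name, and they were 9 of the 48709 genes counted in each library. All 9 had reads in each of the 15 RNA-seq libraries and all 9 passed the filter on low counts. OCT4 was removed along either of 2 routes. CreER ESCs, of mixed 129SV C57BL/6 background, had the genotype Oct4Fl/- with a CAG-driven CreER, so that 4OHT (500 nM) let the recombinase delete the only intact *Pou5f1* allele. Those cells were sampled untreated (0 h) and after 12, 18, 24 and 36 h, with 2 libraries at each time. O4AID ESCs were ZHBT cells of 129SV background and Oct4-/-. They carried a TetOFF Oct4 transgene, a CAG Oct4AID transgene (OCT4 fused to an auxin-inducible degron) and CAG Tir1, which couples that degron to the ubiquitin machinery. They were kept in doxycycline (1 µg/ml) to hold wild-type OCT4 off, and IAA (500 µM), an auxin, was added for 1.5, 6, 10 or 24 h, with 1 library at each time and 1 untreated. Both lines grew in N2B27 with the MEK inhibitor PD03, the GSK3 inhibitor Chiron and LIF, and the untreated cells of each line carried the same alleles and transgenes as the treated cells. The CAG promoter is active in most cell types, so neither CreER nor Oct4AID was under the control of the *Pou5f1* locus.

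Naive ESCs hold their state through a set of transcription factors that bind many of the same enhancers, often beside OCT4 and SOX2. NANOG sits at the centre of that set. TFCP2L1 and TBX3 connect it to LIF and WNT signalling, PRDM14 represses FGF signalling and DNA methylation enzymes, and ZFP42 (REX1) is the classic reporter gene of the naive state. SALL4 and SALL1 are zinc finger factors that recruit the NuRD corepressor, ZFP281 is a zinc finger factor that takes part in the exit from the naive state, and TCL1 is a coactivator of AKT kinases.

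Total counts were 21.7 to 30.8 M in CreER and 40.5 to 48.7 M in O4AID. *Pou5f1* in CreER fell from 324 and 316 CPM (counts per M counts, scaled by TMM) at 0 h to 112 and 124 CPM at 36 h (log2 change -1.43, edgeR adjusted p = 4.07e-19), which checked the labels of that route. In O4AID, *Pou5f1* mRNA stood at 756 CPM at 0 h and 637 CPM at 24 h, and since IAA acts on the protein, these counts checked nothing there. All 6 ESC markers had reads in every library, and their sum went from 2588 to 2665 CPM down to 1901 to 1930 CPM over 36 h in CreER and from 4817 to 1635 CPM over 24 h in O4AID. The summed CPM of 5 fibroblast markers was at most 7.99 in any library.

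The regulatory sequence was looked at first, because OCT4 and SOX2 bind DNA side by side. RefSeq (GRCm38.p6) gave start sites for 6 of the 9 genes, *Nanog*, *Tfcp2l1*, *Zfp42*, *Sall1*, *Zfp281* and *Tcl1*. The 250 bases before each start were searched on both strands for ATGCAAA, a part of the octamer motif that is called the octamer here. The same search was made for the SOX motif CATTGT, the composite CATTGTNATGCAAA, which holds both of those shorter motifs, and the STAT motif TTCNNNGAA. *Nanog* was the only gene of 27025 whose windows held the composite in these exact letters, which were found in 0.00609% of 32851 windows. A string this long is rare by its length alone, and sites that differ in any fixed letter were not counted. The composite lay on the minus strand between 75 and 62 bases before the *Nanog* start at base 122707489 of chromosome 6. The same letters fall between 151 and 138 bases before a second RefSeq start of *Nanog*, at base 122707565, whose window overlaps the one printed. *Zfp42* held the octamer alone, on the minus strand between 185 and 179 bases before its start at base 43307009 of chromosome 8, and 4.12% of all windows held that octamer. CATTGT was in 10.7% of windows and TTCNNNGAA in 7.02%, and no window of the other members held any of the motifs. One window is printed for each of the 2 genes with a match. Capitals mark the composite in *Nanog* (chr6:122707239-122707488, plus strand) and the octamer in *Zfp42* (chr8:43307010-43307259, minus strand), as read 5′ to 3′ along the strand of the gene.
Nanog: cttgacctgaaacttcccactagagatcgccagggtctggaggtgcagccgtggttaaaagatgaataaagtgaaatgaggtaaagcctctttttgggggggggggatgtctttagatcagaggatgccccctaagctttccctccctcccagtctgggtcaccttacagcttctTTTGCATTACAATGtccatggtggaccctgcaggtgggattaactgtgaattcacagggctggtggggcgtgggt
Zfp42: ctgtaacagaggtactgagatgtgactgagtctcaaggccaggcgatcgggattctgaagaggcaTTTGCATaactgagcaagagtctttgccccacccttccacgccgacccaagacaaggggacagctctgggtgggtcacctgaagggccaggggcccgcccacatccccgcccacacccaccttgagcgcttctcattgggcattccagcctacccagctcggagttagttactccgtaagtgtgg
A match describes letters in the window and was not tested as a binding site.

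Levels of different genes were compared per length, as RPKM. In untreated CreER cells, *Nanog* was highest of the 9 with a mean of 250.9 RPKM, followed by *Zfp42* with 170.3 RPKM and *Sall4* with 109 RPKM. *Zfp281* (37.4 RPKM), *Sall1* (32.7 RPKM) and *Tfcp2l1* (22.2 RPKM) stood in the middle. *Tcl1* (13.6 RPKM), *Tbx3* (8.70 RPKM) and *Prdm14* (6.78 RPKM) were lowest, and the values of the 2 libraries did not overlap between any neighbours in this order. In the untreated O4AID library, *Nanog* (613 RPKM) and *Zfp42* (215 RPKM) again came first, but *Tfcp2l1* (179 RPKM) came next, ahead of *Sall4* (57.4 RPKM). The lower 5 of that library lay close together, from *Tbx3* at 28.9 RPKM through *Sall1* (27.2), *Zfp281* (20.3) and *Prdm14* (19.2) to *Tcl1* at 17.1 RPKM. With 1 library, the spread behind that order was not measured.

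**Figure D1:**
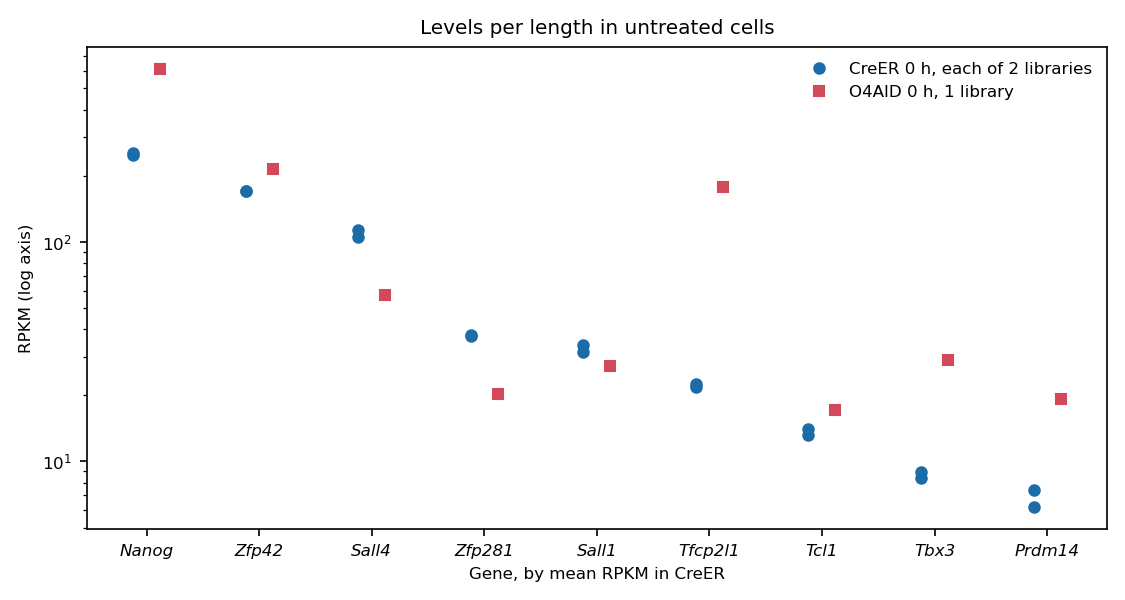
RPKM of the 9 genes in untreated cells, on a log axis. Circles are each of the 2 CreER libraries and squares the 1 O4AID library; *Nanog* was highest in both lines, and *Tfcp2l1* stood at 22.2 RPKM in CreER against 179 RPKM in O4AID.

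The lines thus started from different levels. On the log2(CPM + 1) scale, the untreated O4AID library stood above the mean of the 2 untreated CreER libraries by 3.00 for *Tfcp2l1* (8.01-fold), 1.72 for *Tbx3*, 1.46 for *Prdm14* and 1.29 for *Nanog*. *Zfp42* and *Tcl1* were higher in O4AID by 0.33 and 0.32. *Sall4*, *Zfp281* and *Sall1* were lower in O4AID, by log2 differences of -0.92, -0.88 and -0.26. Scaling by total counts moved these to -1.11, -1.06 and -0.45, so that *Sall4* and *Zfp281* were then past 2-fold lower, and moved *Zfp42* and *Tcl1* to 0.15 and 0.14. With TMM factors, at least 2-fold apart were 4 of the 9 genes, all higher in O4AID, and 31.9% of 18602 genes passed the same fold in either direction (16.5% higher), so a difference of this size between the lines was common. Line, strain, *Pou5f1* alleles, transgenes and doxycycline cannot be told apart in this comparison.

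In CreER cells, the 9 genes changed by less than 2-fold over 36 h of 4OHT, in both directions. The exception was *Tcl1* at 36 h, just past 2-fold lower (-1.03) with scaling by total counts. *Tfcp2l1*, *Nanog* and *Sall1* rose by 36 h, *Tcl1*, *Zfp42* and *Zfp281* fell, *Tbx3* rose at 18 and 24 h, and *Sall4* and *Prdm14* did not pass the test at any time. By edgeR's quasi-likelihood test (adjusted p under 0.05 over 18969 genes), 0 of the 9 were called at 12 h, where 3 had an unadjusted p under 0.05 and DESeq2 also called 0, against 0.395% of all genes. At 18 h 4 of the 9 were called (8.51% of all genes), at 24 h 6 of the 9 (21.6%) and at 36 h again 6 of the 9 (36.6%). Taking the 4 times together, 7 of the 9 changed, and 34.4% of all genes did. The median log2 change of the 9 was -0.02, 0.00, 0.02 and 0.06 in order of time, and that of all genes between 0.00 and 0.01. Of all genes called, 53.1% were higher at 36 h, 51.0% at 24 h and 65.3% at 12 h, and scaling by total counts made that 36.0%, 61.2% and 36.9%. All 4 contrasts share the 0 h libraries, and no untreated library was taken at the later times. A fall in these bulk counts could be fewer cells of a type or less RNA per cell, which cannot be told apart.

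Addition of IAA to O4AID cells was followed by lower levels of most of the same genes within 6 h. *Tbx3*, *Tfcp2l1* and *Zfp42* were at least 2-fold lower at 6 h, *Tcl1* joined them at 10 h, and *Nanog* and *Prdm14* at 24 h. *Sall4*, *Zfp281* and *Sall1* stayed within 2-fold at every time. The counts were 0, 3, 4 and 6 of the 9 at 1.5, 6, 10 and 24 h, all lower, while 0.0858%, 0.954%, 2.13% and 6.78% of all genes passed the same fold in either direction (0.0629%, 0.54%, 1.02% and 2.82% lower). The median log2 change of the 9 was -0.11, -0.90, -0.88 and -1.48, and that of all genes between -0.02 and 0.00. These values come from 1 library per time, so there is no replicate check and no p-value, and their 95% intervals (Wilson) cover counting error only. All of them share the 1 untreated library, and no untreated library was taken at the later times. Loss of OCT4, exposure to IAA and hours in culture cannot be told apart in these libraries.

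**Figure D2:**
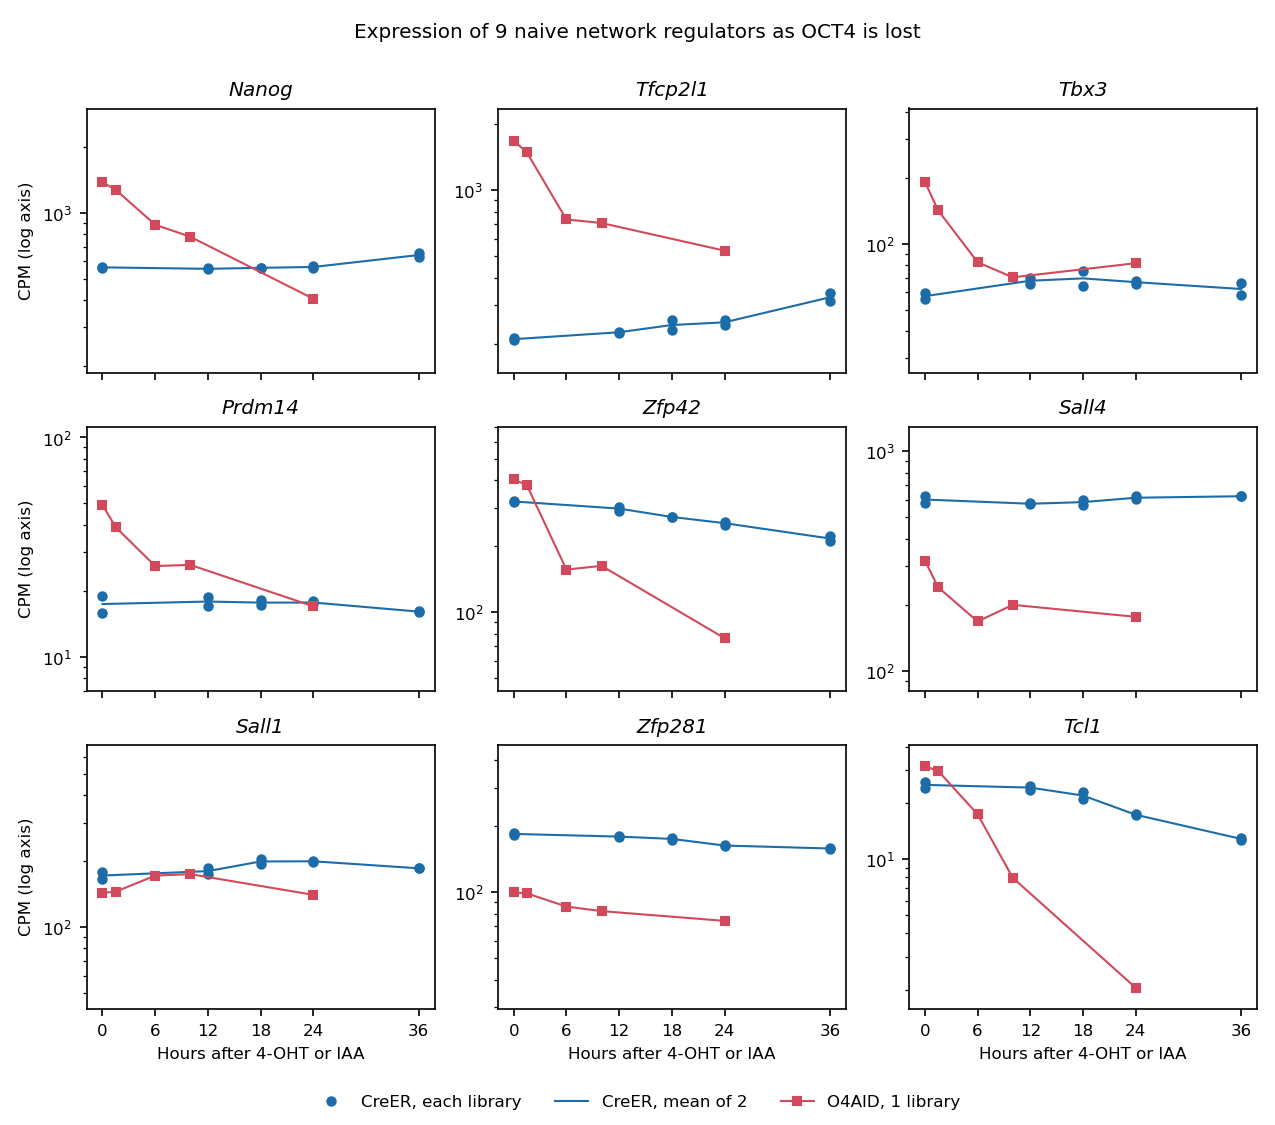
CPM of each of the 9 genes (log axis, each panel with its own range) against hours after 4OHT or IAA. Circles are the 2 CreER libraries at each time with a line through their mean, and squares are the single O4AID libraries; *Tcl1* went from 31.6 to 2.04 CPM in O4AID while *Sall1* stayed between 140.5 and 175 CPM.

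*Nanog* (ENSMUSG00000012396) is a plus-strand gene of chromosome 6 (122707489 to 122714633 in GRCm38/mm10, the build of all gene positions given here), and the composite motif printed above lies just before its start. In CreER it stood at 567 and 558 CPM at 0 h, 557 and 551 CPM at 12 h, 559 and 561 CPM at 18 h, 573 and 556 CPM at 24 h and 651 and 629.8 CPM at 36 h. The libraries up to 24 h lay close together, and both 36 h libraries were above all of them. The rise at 36 h was 0.20 ± 0.04 (log2, SE, n = 2 against 2, edgeR adjusted p = 0.000119), and no earlier time was called. Scaling by total counts lowered it to 0.11 (edgeR adjusted p = 0.0426). In O4AID, *Nanog* stood at 1375, 1271, 880.2, 776 and 404 CPM at 0, 1.5, 6, 10 and 24 h. Each library was below the one before it, and the last held 29.4% of the untreated level, a log2 change of -1.76 (95% interval -1.79 to -1.74). The untreated O4AID library held 2.44 times the CreER level, and the 24 h O4AID library was below every CreER library. Pseudogene copies took few reads, with 0 to 3 counts in *Nanog-ps1* and 0 in *Nanog-ps2*.

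*Tfcp2l1* (ENSMUSG00000026380, chromosome 1, 118627945 to 118685168, plus strand) encodes a CP2-family factor downstream of LIF and of GSK3 inhibition. Its CreER values were 207 and 212 CPM at 0 h, 224 and 227 CPM at 12 h, 256 and 230.0 CPM at 18 h, 257 and 243 CPM at 24 h, and 338 and 312 CPM at 36 h. Every treated library was above both untreated libraries. The log2 rise was 0.22 ± 0.05 at 18 h (SE, n = 2 against 2, edgeR adjusted p = 0.00527), 0.26 ± 0.05 at 24 h (edgeR adjusted p = 0.000334) and 0.65 ± 0.05 at 36 h (edgeR adjusted p = 1.16e-10). The call at 18 h rested on replicate 1 of that time, without which the rise was 0.14 (edgeR adjusted p = 0.206). The opposite direction was seen in O4AID, with 1685, 1489, 737, 709.6 and 531 CPM in order of time. Most of that difference lay between 1.5 and 6 h, where the level went to 49.5% of the 1.5 h value, and 31.5% of the untreated level was left at 24 h (log2 change -1.67, 95% interval -1.69 to -1.64). Even so, the 24 h O4AID library was above every CreER library.

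*Tbx3* (ENSMUSG00000018604, chromosome 5, 119670669 to 119684724, plus strand) encodes a T-box factor. CreER libraries held 59.4 and 55.9 CPM at 0 h, 69.8 and 65.8 CPM at 12 h, 74.8 and 64.1 CPM at 18 h, 65.8 and 67.7 CPM at 24 h, and 65.9 and 58.4 CPM at 36 h. All libraries from 12 to 24 h were above both untreated ones, and at 36 h the groups overlapped. The log2 rise was 0.28 ± 0.07 at 18 h (SE, n = 2 against 2, edgeR adjusted p = 0.0122) and 0.22 ± 0.07 at 24 h (edgeR adjusted p = 0.0218). Both calls were lost when a single library was left out. The rise at 18 h had an edgeR adjusted p of 0.152 when untreated replicate 2 was dropped and of 0.262 (log2 rise 0.16) when replicate 1 at 18 h was. For the rise at 24 h, dropping untreated replicate 2 gave 0.177, and dropping replicate 1 or 2 at 24 h gave 0.0753 or 0.134. In O4AID the values were 191, 142, 82.3, 70.2 and 81.5 CPM. *Tbx3* and *Sall4* were lowest of the 9 relative to their untreated levels at 1.5 h, with *Tbx3* at 74.1% (log2 change -0.43, 95% interval -0.48 to -0.38). It stood lowest at 10 h (36.7% left), and the 24 h library stood at 116% of the 10 h library. Read against the 1.5 h library, the log2 changes at 6 and 24 h were -0.78 and -0.79. An antisense gene, *Tbx3os1*, shares 115 bases of exon with *Tbx3* and held 4 to 41 counts.

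*Prdm14* (ENSMUSG00000042414, chromosome 1, 13113457 to 13127163, minus strand) encodes a PR-domain protein that works with the corepressor CBFA2T2. It was the least abundant of the 9 per length in untreated CreER cells. Its CreER libraries held 15.9 and 18.9 CPM at 0 h, 17.0 and 18.8 CPM at 12 h, 18.1 and 17.2 CPM at 18 h, 17.3 and 18.0 CPM at 24 h, and 16.0 and 16.1 CPM at 36 h. The untreated libraries spanned all treated values. The largest change was -0.11 ± 0.09 at 36 h (log2, SE, n = 2 against 2, edgeR adjusted p = 0.353), and over the 4 times together the edgeR adjusted p was 0.608. O4AID libraries held 49.3, 39.0, 25.9, 26.2 and 17.0 CPM. The level at 1.5 h was already 79.1% of the untreated level (95% interval of the log2 change -0.42 to -0.24), and 34.4% was left at 24 h, where the level lay within the range of the CreER libraries. Read against the 1.5 h library, the log2 changes at 6 and 10 h were -0.57 and -0.55 in place of -0.90 and -0.88.

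*Zfp42* (ENSMUSG00000051176, chromosome 8, 43295063 to 43306980, minus strand) was lower along both routes. In CreER it went from 321 and 320 CPM at 0 h to 303 and 291 CPM at 12 h, 273 and 271 CPM at 18 h, 259 and 251 CPM at 24 h and 222 and 212 CPM at 36 h. No libraries of different times overlapped, and each later time was lower. The log2 fall was -0.23 ± 0.04 at 18 h (SE, n = 2 against 2, edgeR adjusted p = 0.000392), -0.32 ± 0.04 at 24 h (edgeR adjusted p = 1.02e-06) and -0.55 ± 0.04 at 36 h (edgeR adjusted p = 1.69e-11). In O4AID the values were 404, 380, 157, 163 and 76.2 CPM. The 1.5 h library held 94.1% of the untreated level, the 6 h library 38.8% and the 24 h library 18.9% (log2 change -2.39, 95% interval -2.44 to -2.34). *Zfp42* is the gene whose window held the octamer printed above.

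*Sall4* (ENSMUSG00000027547, chromosome 2, 168748332 to 168767943, minus strand) differed between the lines more than over CreER time. CreER libraries held 625 and 582 CPM at 0 h, 579.95 and 574 CPM at 12 h, 602 and 572 CPM at 18 h, 605 and 624 CPM at 24 h, and 624 and 625 CPM at 36 h. At 36 h the log2 change was 0.06 ± 0.04 (SE, n = 2 against 2, edgeR adjusted p = 0.251), and over the 4 times together the edgeR adjusted p was 0.0973. In O4AID, 318, 240.1, 168, 199.5 and 176 CPM were measured. *Sall4* was at 75.6% of its untreated level at 1.5 h (95% interval of the log2 change -0.44 to -0.37), lowest at 6 h with 52.7%, and at 55.4% at 24 h. Read against the 1.5 h library, the log2 changes at 6, 10 and 24 h were -0.52, -0.27 and -0.45 in place of -0.92, -0.67 and -0.85. The antisense gene *Gm14261* covers 526 bases of *Sall4* exon and held 17 to 68 counts, and whether the counting used strand was not stated.

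*Sall1* (ENSMUSG00000031665, chromosome 8, 89027235 to 89044162, minus strand) was the member nearest to its untreated level in O4AID at 24 h. In CreER it stood at 178 and 166 CPM at 0 h, 186 and 174 CPM at 12 h, 204 and 195 CPM at 18 h, 199 and 201 CPM at 24 h, and 186 and 186 CPM at 36 h. From 18 h on, all libraries were above the untreated ones. The log2 rise was 0.22 ± 0.04 at 18 h (SE, n = 2 against 2, edgeR adjusted p = 0.00145), 0.23 ± 0.04 at 24 h (edgeR adjusted p = 0.000393) and 0.12 ± 0.04 at 36 h (edgeR adjusted p = 0.0311). The 18 h call was lost when replicate 1 at 18 h was dropped (edgeR adjusted p = 0.0659). The 36 h call was lost under DESeq2 (adjusted p = 0.113), with scaling by total counts (log2 change 0.04, edgeR adjusted p = 0.602), with RLE factors (edgeR adjusted p = 0.0519) and without the low-count filter (edgeR adjusted p = 0.0663). It was also lost with only the 4 libraries compared (edgeR adjusted p = 0.112), when untreated replicate 2 was dropped (0.272, log2 change 0.08) and when replicate 1 (0.0791) or 2 (0.073) at 36 h was. O4AID libraries held 143, 145, 172, 175 and 140.5 CPM. The 6 and 10 h libraries were the high ones, with log2 changes of 0.26 and 0.28, and the interval at 24 h included 0 (-0.03, 95% interval -0.08 to 0.02). Scaling by total counts gave 0.08 at 24 h.

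*Zfp281* (ENSMUSG00000041483, chromosome 1, 136624901 to 136630053, plus strand) was slightly lower along both routes. CreER libraries held 184 and 186 CPM at 0 h, 179.97 and 179 CPM at 12 h, 173 and 178 CPM at 18 h, 165 and 162 CPM at 24 h, and 159.9 and 157 CPM at 36 h. All treated libraries were below both untreated ones. The log2 fall was -0.17 ± 0.04 at 24 h (SE, n = 2 against 2, edgeR adjusted p = 0.00299, or 0.0505 with replicate 2 at 24 h dropped) and -0.21 ± 0.04 at 36 h (edgeR adjusted p = 0.000138). In O4AID the values were 100.01, 99.0, 86.2, 82.1 and 74.1 CPM, so that 74.1% of the untreated level was left at 24 h (log2 change -0.43, 95% interval -0.49 to -0.36).

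*Tcl1* (ENSMUSG00000041359, chromosome 12, 105216750 to 105222793, minus strand) had the largest fall of the 9 in CreER at 24 and 36 h and stood lowest against its untreated level in O4AID at 10 and 24 h. In CreER it stood at 25.9 and 24.2 CPM at 0 h, 24.9 and 23.6 CPM at 12 h, 22.9 and 21.1 CPM at 18 h, 17.3 and 17.4 CPM at 24 h, and 13.1 and 12.7 CPM at 36 h. From 18 h on, all libraries were below the untreated ones. The log2 change was -0.18 ± 0.07 at 18 h (SE, n = 2 against 2, edgeR adjusted p = 0.107), -0.52 ± 0.07 at 24 h (edgeR adjusted p = 4.17e-06) and -0.95 ± 0.08 at 36 h (edgeR adjusted p = 1.35e-10). In O4AID the values were 31.6, 29.8, 17.4, 7.96 and 2.04 CPM, the last from 93 counts (95% Wilson interval 1.67 to 2.50 CPM). The interval at 1.5 h included 0, 25.2% of the untreated level was left at 10 h, and 6.47% at 24 h (log2 change -3.42, 95% interval -3.62 to -3.20). The neighbouring *Tcl1b1* to *Tcl1b5* genes held at most 13 counts in any library.

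Consecutive times were also compared, since those contrasts do not use the 0 h libraries. In CreER, 0 of the 9 were called by edgeR between 12 and 18 h (4 with an unadjusted p under 0.05, and 0 by DESeq2), against 1.55% of all genes. Only *Tcl1* was called between 18 and 24 h (log2 change -0.34, edgeR adjusted p = 0.011, against 1.35% of genes), and that call was lost under DESeq2 (adjusted p = 0.0519), when replicate 1 at 18 h was dropped (edgeR adjusted p = 0.244) and when replicate 1 (0.181) or 2 (0.132) at 24 h was. Between 24 and 36 h, 4 of the 9 were called (14.7% of genes). *Nanog* rose by 0.18 (log2, edgeR adjusted p = 0.00102) and *Tfcp2l1* by 0.38 (edgeR adjusted p = 4.87e-06), while the change was -0.43 in *Tcl1* (edgeR adjusted p = 0.000504) and -0.23 in *Zfp42* (edgeR adjusted p = 0.000209). Scaling by total counts, which moved the median of all genes by -0.11 (log2) in this step, left a *Nanog* change of 0.08 (edgeR adjusted p = 0.243). In O4AID, *Tfcp2l1* and *Zfp42* were past 2-fold between 1.5 and 6 h (0.539% of genes), *Tcl1* between 6 and 10 h (0.122%), and *Tcl1* and *Zfp42* between 10 and 24 h (2.23%).

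**Figure D3:**
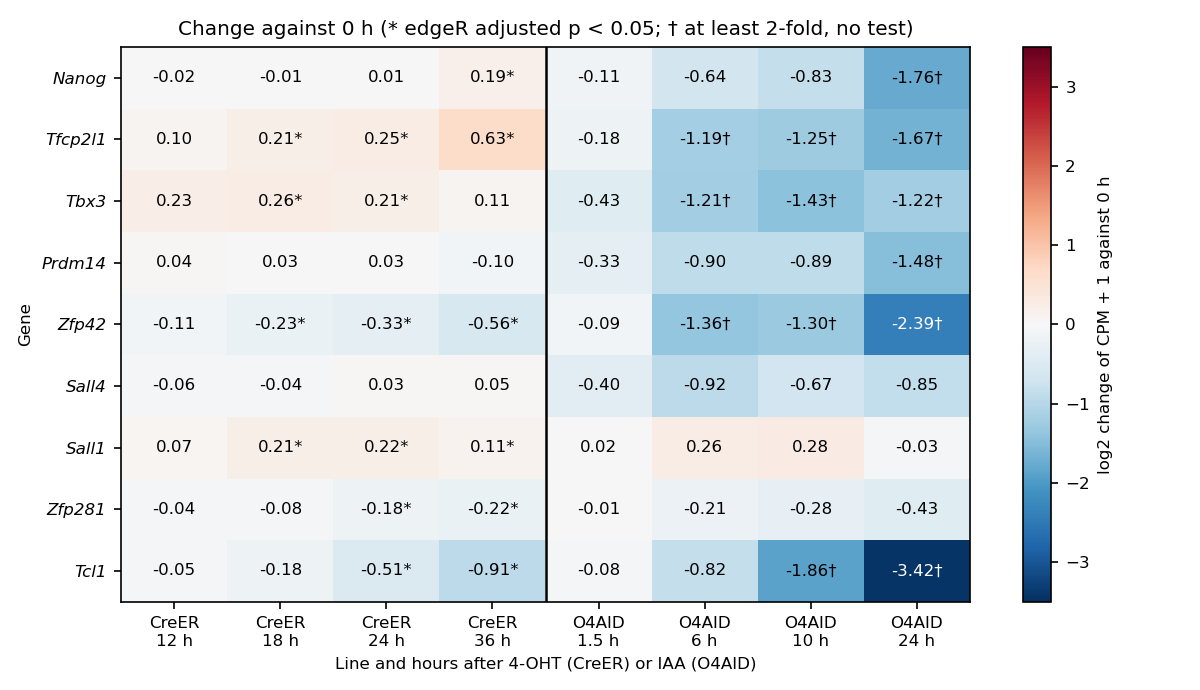
Log2 change of CPM + 1 against 0 h of the same line for the 9 genes (rows) at 4 CreER times (mean of 2 libraries) and 4 O4AID times (1 library each); red is higher and blue lower. Asterisks mark an edgeR adjusted p under 0.05 in CreER and daggers a change of at least 2-fold in O4AID, where no test was made; the lowest value is *Tcl1* at 24 h of O4AID, -3.42.

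The time shared by both routes was 24 h. There the change in O4AID was lower than that in CreER for all 9 genes, each against its own untreated cells. The difference of the log2 changes was -2.91 for *Tcl1*, -2.06 for *Zfp42*, -1.92 for *Tfcp2l1*, -1.77 for *Nanog*, -1.51 for *Prdm14* and -1.43 for *Tbx3*. It was -0.88 for *Sall4*, -0.25 for *Zfp281* and -0.24 for *Sall1*. At least 2-fold apart were 6 of the 9, all lower in O4AID, against 5.79% of 18853 genes in either direction and 2.84% lower. The median of the 9 was -1.51 and that of all genes -0.01. Set against CreER at 36 h instead, the same 6 genes were past 2-fold (6.01% of genes). The same hour need not be the same stage of OCT4 loss. At 24 h *Pou5f1* mRNA in CreER still stood at 133 and 134 CPM (log2 change -1.26), and no protein was measured in these libraries. The difference rests on 1 O4AID library at each time and was not tested. Route, strain, starting level, drug and the OCT4 left at 24 h cannot be told apart in it. *Tfcp2l1* and *Tbx3* were above 0 in CreER and past 2-fold lower in O4AID, whereas *Tcl1* and *Zfp42* were below 0 in both.

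**Figure D4:**
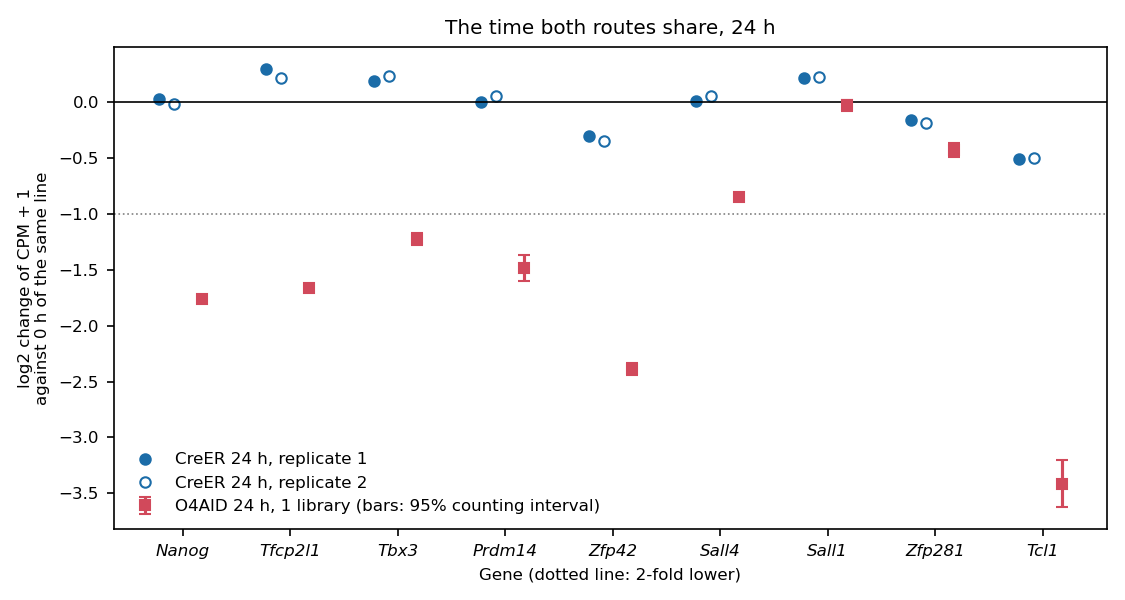
Log2 change of CPM + 1 at 24 h against 0 h of the same line. Circles are the 2 CreER replicates (filled and open, against the mean of the untreated libraries) and squares the single O4AID library with 95% counting intervals; 6 of the 9 O4AID squares lie below the dotted line at 2-fold lower, and no CreER circle does.

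Genes outside the 9 with the most similar course were found by the root mean square difference of log2 changes over the 8 treated times, among 9723 genes with a mean of at least 10 CPM. For *Nanog* they were *Apcdd1* (0.09), *Rnd1* (0.09), *Atp2a3* (0.10), *Ryr2* (0.10) and *Dlgap3* (0.12). The closest gene was *Cdx1* for *Tfcp2l1* (0.13), *Rps10-ps2* for *Tbx3* (0.19), *Platr13* for *Prdm14* (0.11) and *Nfatc2ip* for *Zfp42* (0.13). It was *Rnd3* for *Sall4* (0.07), *Bak1* for *Sall1* (0.06), *Xrcc5* for *Zfp281* (0.03) and *Nmnat2* for *Tcl1* (0.12). Of the 36 pairs among the 9, *Nanog* and *Prdm14* were nearest (0.19) and *Sall1* and *Tcl1* farthest apart (1.54). These times share the untreated library or libraries of their line, so the likeness is a description.

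Further naive factors were read from a list of 12 (*Sox2*, *Esrrb*, *Klf2*, *Klf4*, *Klf5*, *Nr5a2*, *Nr0b1*, *Stat3*, *Gbx2*, *Tet2*, *Fgf4* and *Dppa3*). In CreER, 10 of the 12 fell and 0 rose at 36 h, with a median log2 change of -0.38, against a median of 0.06 in the 9 members and 17.2% of all genes called lower (19.4% higher). At 24 h, 7 of the 12 fell and 1 rose (10.6% and 11.0% of genes), at 18 h 6 fell and 1 rose (3.79% and 4.73%), and at 12 h 1 fell (0.137%). In O4AID, 0, 6, 7 and 9 of the 12 were at least 2-fold lower at 1.5, 6, 10 and 24 h and none was 2-fold higher (0.0629%, 0.54%, 1.02% and 2.82% of all genes lower), with medians of -0.35, -0.99, -1.07 and -1.66. The medians of the 9 members stood beside these at -0.11, -0.90, -0.88 and -1.48, and the difference between the lists was not tested in either line. *Nr0b1*, which encodes the nuclear receptor DAX1, had log2 changes of -1.25 in CreER at 36 h (edgeR adjusted p = 7.15e-12) and -3.18 in O4AID at 24 h. *Fgf4*, the growth factor that drives ESCs towards differentiation, had -0.73 (edgeR adjusted p = 3.18e-13) and -3.09. *Esrrb*, a nuclear receptor and close partner of NANOG, had 0.07 (edgeR adjusted p = 0.251) and -2.81. *Klf4*, a zinc finger factor downstream of LIF, had -0.16 (edgeR adjusted p = 0.0275) and -2.39.

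Of 14 relatives of the members, 8 could be tested in CreER. At 36 h 1 of the 8 rose and 4 fell, against 19.4% and 17.2% of all genes, and 1 of 8 was past 2-fold in O4AID at 24 h, against 6.78%. *Sall3* was the one past 2-fold, with log2 changes of -1.11 in CreER at 36 h (edgeR adjusted p = 4.22e-05) and -1.85 in O4AID at 24 h. *Sall2* had -0.60 (edgeR adjusted p = 1.11e-07) and 0.04, and *Tfcp2*, the paralogue of *Tfcp2l1*, had 0.55 (edgeR adjusted p = 2.62e-05) and 0.06. *Tbx2*, the paralogue of *Tbx3*, held at most 35 counts in any library and had 0.56 (edgeR adjusted p = 0.333) and 0.01. Changes among these relatives thus ran in both directions.

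Genes of partner proteins were read next. Of 15 cofactor genes (11 NuRD subunits, *Cbfa2t2*, *Akt1*, *Akt2* and *Tet1*), 3 rose and 6 fell in CreER at 36 h (19.4% and 17.2% of all genes), and 1 was past 2-fold in O4AID at 24 h (6.78% of all genes). That gene was *Tet1*, a dioxygenase that oxidises 5-methylcytosine, with -0.36 in CreER at 36 h (edgeR adjusted p = 4.1e-05) and -1.27 in O4AID at 24 h. *Cbfa2t2*, the partner of PRDM14, had -0.16 (edgeR adjusted p = 0.00613) and -0.87, and the NuRD subunits *Rbbp7* and *Hdac2* had 0.27 (edgeR adjusted p = 6.77e-06) and -0.26 (edgeR adjusted p = 3.04e-05) in CreER, beside 0.75 and -0.66 in O4AID. The median of the 15 was -0.07 in CreER at 36 h and -0.14 in O4AID at 24 h.

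Among 8 genes of the LIF and WNT inputs, 4 rose (*Axin2*, *Ctnnb1*, *Gsk3b* and *Jak1*) and 1 fell (*Lifr*) in CreER at 36 h, against 19.4% and 17.2% of all genes. *Axin2*, a direct target of WNT signalling, rose by 0.48 in CreER at 36 h (edgeR adjusted p = 0.000373) and was the only gene of the 8 past 2-fold in O4AID at 24 h, with 1.73, against 6.78% of all genes. *Lifr*, the LIF receptor, had -0.83 (edgeR adjusted p = 1.26e-14) and -0.43. *Socs3*, a feedback target of LIF signalling, had 0.10 (edgeR adjusted p = 0.117) and 0.45, and *Il6st*, the coreceptor gp130, had -0.05 (edgeR adjusted p = 0.432) and 0.38.

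Markers of other cell types were read at the same times. The summed CPM of 5 trophectoderm markers went from 79.0 to 85.3 in CreER at 0 h to 194 to 205 at 36 h. All 5 (*Cdx2*, *Gata3*, *Hand1*, *Elf5* and *Tfap2c*) were called higher there, against 19.4% of all genes. In O4AID that sum was 93.8, 98.8, 124, 121 and 89.8 CPM at 0, 1.5, 6, 10 and 24 h. At 24 h the median log2 change of CPM + 1 was 0.89 over the 5. *Tfap2c*, which held most of the untreated sum (91.1 CPM), had -0.15. At that time 6.78% of all genes were past 2-fold in either direction. *Cdx2* alone of the 5 was past 2-fold higher on the CPM + 1 scale (1.01), beside *Hand1* at 0.99, *Gata3* at 0.89 and *Elf5* at 0.07. These genes stood at 0.95, 0.32, 1.24 and 0.20 CPM untreated, where adding 1 CPM makes a fold smaller. The sum of 5 primitive endoderm markers went from 4.59 to 4.84 up to 9.90 to 10.1 CPM in CreER. There *Gata6* alone of the 4 tested was called higher at 36 h (19.4% of all genes). In O4AID the sum went from 9.56 to 33.8 CPM. *Gata6* and *Pdgfra* of the 5 were past 2-fold higher at 24 h on the CPM + 1 scale (6.78% of all genes in either direction). The sum of 4 formative or primed epiblast markers went from 639.99 to 650.3 down to 472 to 481 CPM in CreER. *Dnmt3b* held most of that untreated sum, with a mean of 582 CPM. All 4 were called lower at 36 h (17.2% of all genes). At 24 h, however, *Fgf5* was called higher (log2 change 0.41, edgeR adjusted p = 0.0113, against 11.0% of all genes). The sum went from 105 to 122 CPM in O4AID, where *Dnmt3b* held most of the untreated sum (99.2 CPM) and had 0.27 at 24 h. There *Otx2* and *Pou3f1* had -0.80 and -0.54 at 24 h, and *Fgf5* was at 0 counts at 0, 1.5, 10 and 24 h. The part of these cell types in the changes of the 9 genes was not tested.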

How the data were processed

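Rows for the 9 genes were taken from 15 count files, 10 of CreER and 5 of O4AID ESCs, grouped by their labels. The authors depleted ribosomal RNA, made directional libraries, trimmed reads with Trim Galore 0.1.4, aligned them to GRCm38/mm10 with TopHat2 2.1.0 and counted them per gene with featureCounts 1.5.1 on an Ensembl annotation. Strand and multimapping settings were not given in the sources used here, so overlapping genes may share reads. The deposited files hold raw read counts per gene. A table that the authors normalised by TMM was not used here. Of 48801 entries, 92 spike-ins with 0 reads were left out. Reads in genes with no symbol (0.0412%) were kept. Replicates differed by more than sampling noise (chi-square over its degrees of freedom 3.27 to 7.76) and were counted separately. Nothing in the labels says that replicates came from separate cultures, so p-values measure the spread between these libraries, which may be technical. Reads carry no molecular identifiers, so intervals measure counting error alone.

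Tests on CreER counts used edgeR 4.0.16 (quasi-likelihood, robust, TMM factors, filterByExpr) in R 4.3.3, with 10 libraries in 1 fit and Benjamini-Hochberg adjustment over 18969 genes. The script was tested on simulated data. O4AID times have 1 library each and got log2 ratios of TMM CPM + 1, called at 2-fold, with a background of genes having a mean of at least 10 counts in the libraries compared. The authors' NOISeq-sim simulates replicates and was not used. CPM and RPKM used TMM factors over all 15 libraries. Members and lists were chosen with earlier results of these data known. Named genes were the 9 members, *Pou5f1*, the gene most like each member (5 for *Nanog*), and up to 4 genes per list with the largest change in CreER at 36 h or O4AID at 24 h. List genes given with their counts by name, and marker genes, were named beside those. One cofactor gene is not reported here. Alternatives were DESeq2 1.42.0, other scalings, filters, folds, a replicate block and leaving out each library.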

Additional observations from a re-analysis of the deposited data

Results flagged for a closer look

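For 3 of the 9 genes both CreER libraries at 24 h lay above both untreated ones, while the O4AID library at 24 h lay below its untreated library. The O4AID minus CreER difference of log2 changes was -1.92 for *Tfcp2l1*, -1.43 for *Tbx3* and -0.24 for *Sall1*. In *Tfcp2l1* the CreER replicates had changes of 0.30 and 0.21 and the O4AID library -1.67. In *Tbx3* they had 0.19 and 0.23 beside -1.22. In *Sall1* they had 0.21 and 0.22 beside -0.03, whose counting interval included 0 and which scaling by total counts turned to 0.08, the side of CreER. In *Sall4* the CreER replicates were also above 0, at 0.005 and 0.05, beside -0.85, but those libraries overlapped the untreated ones. These differences were not tested, since O4AID had 1 library per time.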

How the results depend on the processing

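Of 761 single values recomputed under an alternative, 613 kept their direction and call or moved within their error, 21 lost a call, 2 gained one and 22 changed sign, and 103 values without a test moved by more than their counting interval or replicate SD. Not among the 22, total counts also turned *Sall1* in O4AID at 24 h from -0.03 to 0.0766 and *Zfp281* at 1.5 h from -0.01 to above 0, both with counting intervals that included 0. Of 175 counts recomputed, 155 stayed within 1.5 times. Lost calls stand beside their genes in the report, and the gains were *Tbx3* at 12 h without the low-count filter (edgeR adjusted p = 0.00284) and at 36 h without replicate 2 of 36 h (edgeR adjusted p = 0.039). Every change of sign was in a value that was not called. For *Nanog* at 18 h the log2 change was -0.006 with RLE factors and with DESeq2, -0.0153 with total counts, -0.0043 without the filter, -0.0008 with at least 10 counts in every library and -0.0002 with only the 4 libraries compared. With total counts it was -0.0078 for *Prdm14* at 12 h and -0.0239 for *Sall4* at 36 h.

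Without the low-count filter, 1 member and 222 of all genes were called at 12 h (0 and 75 with it), and DESeq2 called 989 genes at 18 h and 2585 at 24 h (1615 and 4089 by edgeR) and 0 members from 18 to 24 h (edgeR 1). With only the 4 libraries compared, 2 members were called from 12 to 18 h. At 1.5-fold, 7 members were past the fold in O4AID at 6 h and 7 at 10 h. The share of all genes under these settings is not given here, so these counts are not read as a result about the members. Dropping the filter on mean counts left 1.33% and 4.31% of genes past 2-fold in O4AID at 10 and 24 h (2.13% and 6.78% with it). With total counts, 6 members rather than 4 were called from 24 to 36 h, and 3884 rather than 2784 of all genes. Between the untreated lines, 6 members rather than 4 were 2-fold apart (31.9% of all genes with TMM factors), where the added *Sall4* and *Zfp281* were lower in O4AID. In the steps from 12, 18 and 24 h, the share of called genes that were higher was 67.0%, 55.3% and 55.4%, and 83.8%, 78.5% and 17.6% with total counts. The cause of these differences was not tested, except that a change of filter or fold changes the genes counted.

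Leaving out 1 library at a time, the genes called numbered 8 to 218 at 12 h, 581 to 2006 at 18 h and 2343 to 3703 at 24 h, and the members called 1 to 4 at 18 h and 0 to 1 from 18 to 24 h. The 1 member at 18 h was left when replicate 1 of 18 h was out. A lone library was then taken to vary like the other groups. The log2 change of *Prdm14* ranged from -0.0879 to 0.1731 at 12 h, -0.0976 to 0.1636 at 18 h, -0.0957 to 0.1647 at 24 h and -0.229 to 0.0319 at 36 h. That of *Tcl1* ranged from -0.0851 to 0.0041 at 12 h, that of *Sall4* from -0.0784 to 0.0156 at 18 h and -0.0116 to 0.0831 at 24 h, and that of *Nanog* from -0.0069 to 0.0073 at 18 h and -0.0114 to 0.036 at 24 h.

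Replicate numbers did not pair the samples, as deviations of same-numbered libraries correlated at -0.021 to 0.050. With the number as a replicate block, 0, 4, 6 and 6 members and 89, 1678, 4139 and 6999 of all genes were called at 12, 18, 24 and 36 h, and the block changed no member's call. Every O4AID value rests on 1 library, and *Tcl1* at 24 h on 93 counts, so a pseudocount of 5 CPM gave -2.38 and of 0.1 CPM -3.89 in place of -3.42.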
